A study of Mus musculus with 6 samples.

Results

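RNA of 43 listed type I interferon stimulated genes was compared in splenic CD8+ T cells of C57BL/6 mice, wild type in genotype, fed either of 2 diets, CDAHFD and ND. The genes were taken by name from a list that has no threshold on measured values, and the Ensembl IDs of a deposited table of 26181 genes were matched to their symbols. All 43 were found, and all 43 passed the filter on low values, a mean of at least 10 normalised counts. CDAHFD usually stands for a high-fat diet without choline whose protein is given as defined amino acids, and it is fed to mice as a model of fatty liver inflammation with scarring (MASH in the labels). What the diet labelled ND contained is not given in the sources used here. Mice were 6 weeks old when the diets began and ate them for 7 weeks. Each diet had 3 libraries, with 25537263 to 28067393 reads assigned to genes in CDAHFD libraries and 25314988 to 27790992 in ND libraries. Whether each library is a separate mouse is not stated, so p-values reflect only how far these samples spread, and part of that spread may be technical.

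Type I interferons are secreted alarm signals of infection. They bind the receptor chains encoded by Ifnar1 and Ifnar2, whose kinases activate a transcription factor complex that includes STAT2 and IRF9 and switches on a large set of genes through a DNA element called ISRE. Many of the products block the copying of viruses, others sense viral nucleic acid, and a few shut the response off again. In CD8+ T cells the same signal is known to support clonal expansion and, where it persists, to hold back proliferation and survival.

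The 43 listed genes were lower on balance in CDAHFD libraries, but not as 1 block. The list was made with earlier results of these data known, so its balance describes these 43 genes; 48 other interferon stimulated genes tested had a median of -0.015. Of the 43 genes 25 fell, 8 rose and 10 did not pass the test (limma with Benjamini-Hochberg adjustment over 15819 genes, adjusted p under 0.05). Across all genes tested, 22.5% were called lower and 24.6% higher, so the 25 falls are 58.1% of the members against that background, and the 8 rises are 18.6%; in either direction 47.1% of all genes were called. The count test edgeR on recovered reads gave 25 falls and 8 rises, where it called 22.9% of all genes lower and 24.7% higher (47.6% in all), and DESeq2 gave 23 and 8, where it called 19.6% lower and 23.1% higher. The members had a median log2 fold change of -0.22, where the median of all genes tested was -0.015. Falls were mostly small: Ifi27l2a dropped most, by 1.29 on the log2 scale, followed by Oas2 and Ifit1, and Dhx58 dropped least, by 0.18. The 2 steepest rises, those of Ifi44 and Ifitm2, were larger than any fall. Fold changes are given throughout as CDAHFD minus ND after log2(normalised count + 1), where a normalised count is a read count divided by the size factor of its library.

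**Figure D1:**
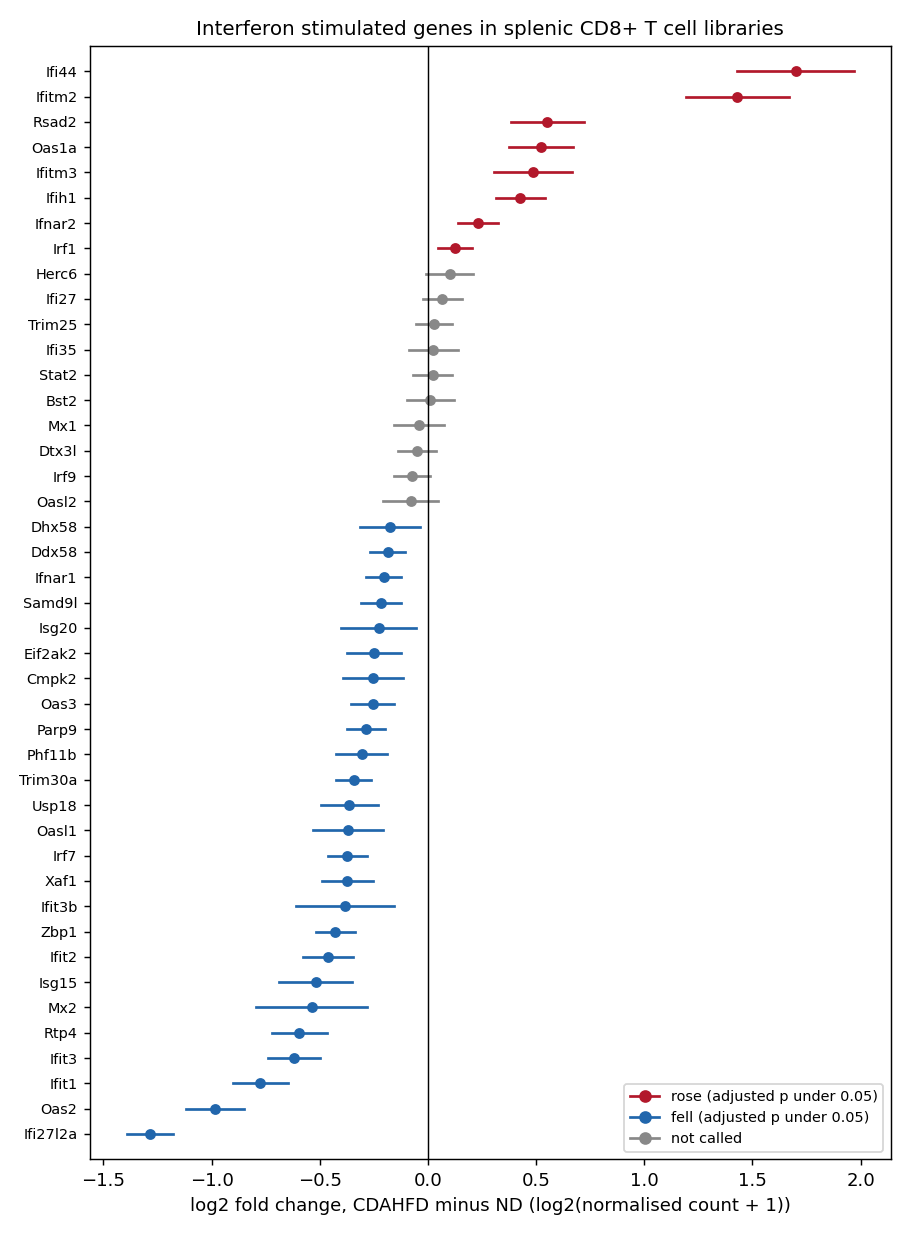
Log2 fold change of each of the 43 genes, CDAHFD minus ND, with its 95% limma interval (horizontal axis), sorted by value; blue marks the 25 genes that fell, red the 8 that rose and grey the 10 not called. Values run from -1.29 for Ifi27l2a to 1.70 for Ifi44.

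T cell genes were lower in the same libraries by about the same amount. Of 20 CD8 T cell markers 15 fell and 2 rose, with a median of -0.23, and their summed level was 220023 to 227620 normalised counts in CDAHFD libraries and 253800 to 263205 in ND libraries. Cd8a, which defines the labelled cells, was at 27782, 28177 and 27699 normalised counts in CDAHFD libraries and 32988, 32995 and 32684 in ND libraries. Scaled to those 20 genes, 11 of the 25 falls were still called and 14 were not. The 8 rises remained, and all 10 uncalled members were called higher. This setting lifts the median of all genes tested by 0.24 and calls 50.8% of them higher and 6.32% lower. The 11 that fell under every scaling tried were Ifi27l2a, Oas2, Ifit1, Ifit3, Rtp4, Mx2, Isg15, Ifit2, Zbp1, Irf7 and Trim30a. In bulk RNA, fewer cells of a type and less RNA per cell cannot be told apart.

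Markers of macrophages, neutrophils and red cells moved far more than most of the interferon genes. All 15 macrophage markers rose, with a median of 3.05, and their summed level was 187915 to 206996 normalised counts in CDAHFD libraries, against 21531.5 to 23732.1 in ND libraries. All 9 erythroid markers tested rose (median 3.13), with sums of 9264 to 9545 in CDAHFD and 945.5 to 994.9 in ND libraries. Among 12 neutrophil markers 10 rose (median 1.65), with sums of 9198 to 10402.6 in CDAHFD and 3479.9 to 3516 in ND libraries. Among 10 monocyte markers 7 rose and 3 fell (median 0.62), with sums of 19358.9 to 20463.7 in CDAHFD and 15756 to 17469 in ND libraries. Myeloid and red cell markers were thus higher in every CDAHFD library than in any ND library when summed. Of 10 NK cell markers 5 rose and 2 fell (median 0.31), with sums of 9863 to 10290.5 in CDAHFD and 6227 to 6472 in ND libraries. Of 16 markers of plasmacytoid dendritic cells, a main source of type I interferon, 7 fell and 5 rose (median -0.24), with sums of 18944 to 19386.6 in CDAHFD and 20690.2 to 21807.7 in ND libraries. Of 12 B cell markers 10 fell and 1 rose (median -0.37), with sums of 53531.8 to 56879 in CDAHFD and 60703 to 61914.9 in ND libraries. Of 12 conventional dendritic cell markers 9 fell and 1 rose (median -0.28), and their sums overlapped, at 108109 to 115779 in CDAHFD and 113432 to 119916 in ND libraries. No marker was at 0 in all 6 libraries. Heat shock genes, listed as only a possible sign of handling, rose in 8 of 9 tested (median 0.73). The 10 listed summed to 101093 to 109571 in CDAHFD and 62560.3 to 65058 in ND libraries. Immune cells of other types can express interferon stimulated genes too, and the part of these cells and of handling in the results was not tested.

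**Figure D2:**
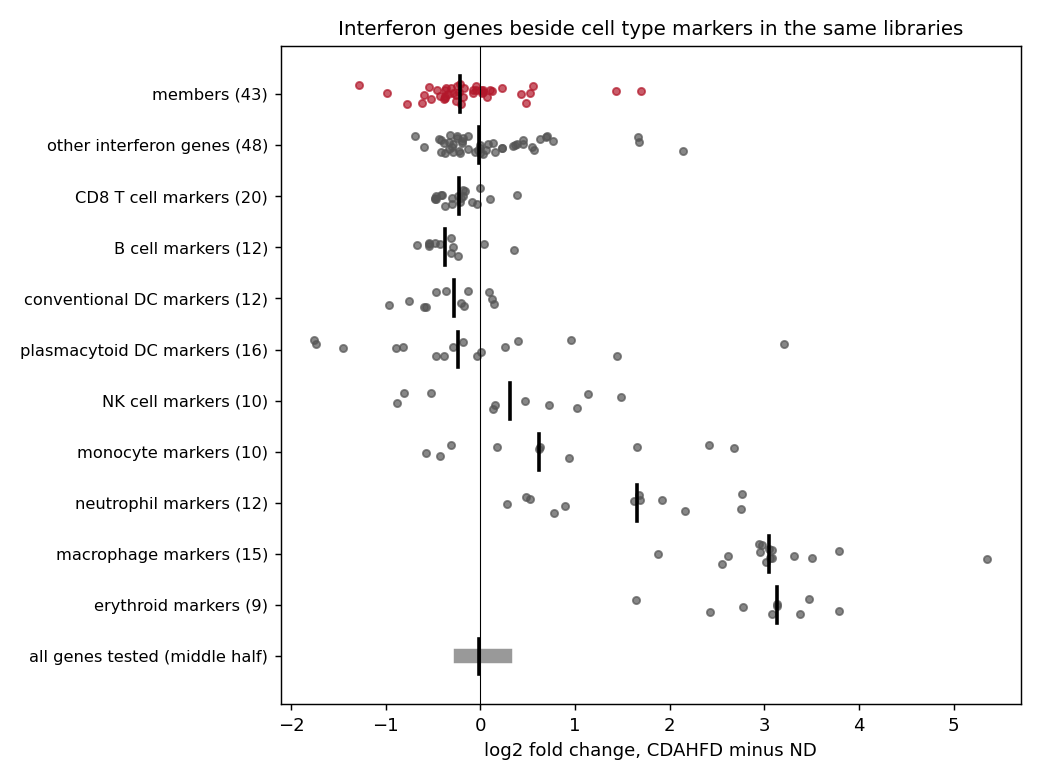
Log2 fold change, CDAHFD minus ND (horizontal axis), of the 43 interferon stimulated genes (red), of other interferon genes and of cell type markers (grey points, number of genes in brackets), with the median of each list as a black bar and the middle of all genes tested, from the lower to the upper quartile, as a grey bar. The members' median of -0.22 lies beside that of the CD8 T cell markers, -0.23, while macrophage markers have a median of 3.05.

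Promoter sequences of some members that fell and some that rose are set side by side. Those printed all have a match to the interferon response element before the start site, so they do not stand for all members. Ifi44, which rose most, and Irf7, which fell, had no match in the window searched. The motif searched was the core of ISRE, GAAA followed after 2 bases of any kind by GAAA again. It was searched on either strand (TTTC and TTTC when read on the other). Windows ran from 250 bases before to 50 after each start site in RefSeq's GRCm38.p6 annotation. By symbol, 33 of the 43 genes were matched to a window. Ifi27l2a and Oas2, the deepest falls, were among the 10 not matched. The ISRE core was present for 16 of the 33 matched genes (48.5%), against 3.99% of all 27025 genes with a window. By call, it was present for 9 of 17 genes that fell, 5 of 8 that rose and 2 of 8 not called. These counts include genes matched only after the start site, namely Ddx58 and Eif2ak2, which fell, and Ifih1 and Ifitm3, which rose. Another element, TTCNNNGAA (GAS, an element of interferon gamma responses, read the same on both strands), was present for 10 of 33 members and 9.55% of all genes. Each line below gives the 200 bases before the start site, 5′ to 3′ on the gene's strand, with ISRE matches in capitals. Isg15, Ifit1, Ifit3 and Ifit3b fell, and Oas1a, Rsad2 and Ifitm2 rose.
Isg15 (chr4:156200819-156201018, minus strand): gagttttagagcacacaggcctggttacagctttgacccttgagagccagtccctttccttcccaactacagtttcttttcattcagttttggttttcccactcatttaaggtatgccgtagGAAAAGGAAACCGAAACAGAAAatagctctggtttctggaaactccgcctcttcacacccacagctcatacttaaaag
Ifit1 (chr19:34640689-34640888, plus strand): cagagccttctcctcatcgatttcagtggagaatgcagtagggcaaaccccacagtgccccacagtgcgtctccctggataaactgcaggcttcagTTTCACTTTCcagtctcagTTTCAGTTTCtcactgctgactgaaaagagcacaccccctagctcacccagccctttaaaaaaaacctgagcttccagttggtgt
Ifit3 (chr19:34583329-34583528, plus strand): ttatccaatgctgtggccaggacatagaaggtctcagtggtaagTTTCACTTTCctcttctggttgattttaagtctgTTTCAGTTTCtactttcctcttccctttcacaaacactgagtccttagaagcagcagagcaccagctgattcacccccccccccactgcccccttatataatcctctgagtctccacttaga
Ifit3b (chr19:34607757-34607956, plus strand): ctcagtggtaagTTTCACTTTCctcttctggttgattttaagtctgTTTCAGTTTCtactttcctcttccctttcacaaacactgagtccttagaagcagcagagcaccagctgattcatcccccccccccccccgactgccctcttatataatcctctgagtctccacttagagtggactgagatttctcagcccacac
Oas1a (chr5:120907526-120907725, minus strand): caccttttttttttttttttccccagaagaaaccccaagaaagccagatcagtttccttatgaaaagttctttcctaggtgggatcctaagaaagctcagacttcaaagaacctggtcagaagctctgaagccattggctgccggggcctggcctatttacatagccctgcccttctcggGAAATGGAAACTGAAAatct
Rsad2 (chr12:26456453-26456652, minus strand): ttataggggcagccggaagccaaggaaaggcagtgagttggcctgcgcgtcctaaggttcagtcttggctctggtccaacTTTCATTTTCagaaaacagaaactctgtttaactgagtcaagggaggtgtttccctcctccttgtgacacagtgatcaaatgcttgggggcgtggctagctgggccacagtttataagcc
Ifitm2 (chr7:140955962-140956161, minus strand): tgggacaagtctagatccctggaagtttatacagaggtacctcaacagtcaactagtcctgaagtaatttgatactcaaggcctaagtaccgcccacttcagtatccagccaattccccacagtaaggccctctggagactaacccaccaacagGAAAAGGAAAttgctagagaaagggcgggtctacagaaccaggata
In Isg15 and Oas1a the matches overlap each other, forming 1 unbroken run of repeats, whereas in Ifit1, Ifit3 and Ifit3b 2 separate matches lie in the other orientation. Rsad2 and Ifitm2 have 1 match each within the bases shown. The stretch around the 2 matches of Ifit3 recurs before Ifit3b, its neighbour on chromosome 19. A match describes letters in a window and does not show binding.

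The receptor chains moved in opposite directions under the deposited scaling, whereas Ifnar1 stood at 0.033 and was not called when scaled to T cell genes. Ifnar1, which binds interferon and the kinase TYK2, had 4061, 4263 and 4141 normalised counts in CDAHFD libraries and 4839, 4728 and 4793 in ND libraries (log2 fold change -0.20, SE 0.040, limma adjusted p = 0.000101). Ifnar2, the chain with the higher affinity for interferon, had 2273, 2289 and 2251 in CDAHFD libraries against 1987, 1950.0 and 1869.6 in ND libraries (log2 fold change 0.23, SE 0.045, limma adjusted p = 0.000108). The diets did not overlap for either chain, as was the case for 54.3% of all genes tested. Ifnar2 shares 315 exon bases with Gm21970 on the same strand, and 8.87% of the 50-base stretches of its longest transcript occur in other genes.

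Of the 4 transcription factors among the 43 genes only Irf7, a factor that amplifies the response and is itself induced, was called lower under the deposited scaling. Irf7 (chromosome 7, 141262706 to 141266481 in mm10) had 2463, 2431 and 2290.2 normalised counts in CDAHFD libraries and 3150.4, 3113 and 3036 in ND libraries, with a difference of -0.37 on the log2 scale (SE 0.044, limma adjusted p = 4.51e-08). Irf1, which is driven by interferon gamma as well, was slightly higher at 6621, 6576 and 6635 in CDAHFD libraries against 5997, 6261 and 5924 in ND libraries (log2 fold change 0.13, limma adjusted p = 0.00891), and it missed the threshold without ND replicate 3 (limma adjusted p = 0.0512) and in limma without trend and robust estimation (adjusted p = 0.0662). Stat2 averaged 2524 ± 66.7 in CDAHFD libraries and 2486 ± 35.7 in ND libraries (SD, n = 3 each, limma adjusted p = 0.723). Irf9, its DNA-binding partner, averaged 3599 ± 28.7 and 3789.9 ± 80.2 in CDAHFD and ND libraries (limma adjusted p = 0.138), with no overlap between the diets. Scaled to T cell genes both were called higher, at 0.26 for Stat2 and 0.16 for Irf9.

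All 4 listed genes of the IFIT family, which bind viral RNA and block its translation, fell. Outside the list, the related Ifit1bl1 was called lower (log2 fold change -0.22), and Ifit1bl2 was not called (0.15, limma adjusted p = 0.543). The 4 listed genes lie in 1 cluster on chromosome 19, from 34550694 (the start of Ifit2) to 34650009 (the end of Ifit1). Ifit1 had 671, 606 and 615 normalised counts in CDAHFD libraries and 1061, 1064 and 1109.7 in ND libraries (log2 fold change -0.77, SE 0.062, limma adjusted p = 1.86e-11). Ifit3, a partner that stabilises IFIT1, had 781, 749 and 816 in CDAHFD libraries and 1193, 1250.0 and 1161 in ND libraries (log2 fold change -0.62, SE 0.058). Ifit2 had 1346, 1308 and 1157 in CDAHFD libraries and 1670.1, 1792 and 1774 in ND libraries (log2 fold change -0.46). For each of these 3 genes the highest CDAHFD library was below the lowest ND library, as for 26.5% of all genes tested. Ifit3b was lower too, at 176, 166 and 176 in CDAHFD libraries against 205, 239 and 232 in ND libraries (log2 fold change -0.38, limma adjusted p = 0.00541). The copies Ifit3 and Ifit3b are uncertain as separate genes, because 51.2% of the 50-base stretches of the longest Ifit3 transcript occur in Ifit3b as well, and the counting could split their reads. Scaled to T cell genes the 4 listed genes stayed below 0, from -0.54 for Ifit1 to -0.14 for Ifit3b, but Ifit3b no longer passed the test (limma adjusted p = 0.29).

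The oligoadenylate synthetases, which sense double-stranded RNA and activate RNase L, split. Oas2 had 533, 587 and 603 normalised counts in CDAHFD libraries, against 1081, 1132 and 1195 in ND libraries (log2 fold change -0.98, SE 0.065, limma adjusted p = 2.78e-13). Its CDAHFD mean was 0.506 of its ND mean. Oas3 fell by 0.25, though it stood at -0.017 and was not called when scaled to T cell genes. Oasl1, a relative known to restrain translation of Irf7 in mouse, fell by 0.37 on the log2 scale. Under the T cell scaling Oasl1 stood at -0.13 without a call. Oasl2 averaged 821 ± 37.3 in CDAHFD libraries and 868 ± 31.8 in ND libraries (SD, n = 3 each, limma adjusted p = 0.302). Oas1a went the other way, with 752, 694 and 822 in CDAHFD libraries against 542, 527 and 506 in ND libraries (log2 fold change 0.52, SE 0.071, limma adjusted p = 5.8e-07). Its reads are uncertain, since 57.6% of its 50-base stretches also occur in its copy Oas1g, which rose by 1.67 from a far lower count (87 ± 9.17 in CDAHFD and 26.8 ± 4.54 in ND libraries, SD, n = 3 each). The other Oas1 genes listed outside the members, Oas1b and Oas1c, did not rise. Oas1c was called lower (log2 fold change -0.59, limma adjusted p = 6.42e-07) and Oas1b was not called (-0.0075, limma adjusted p = 0.941).

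**Figure D3:**
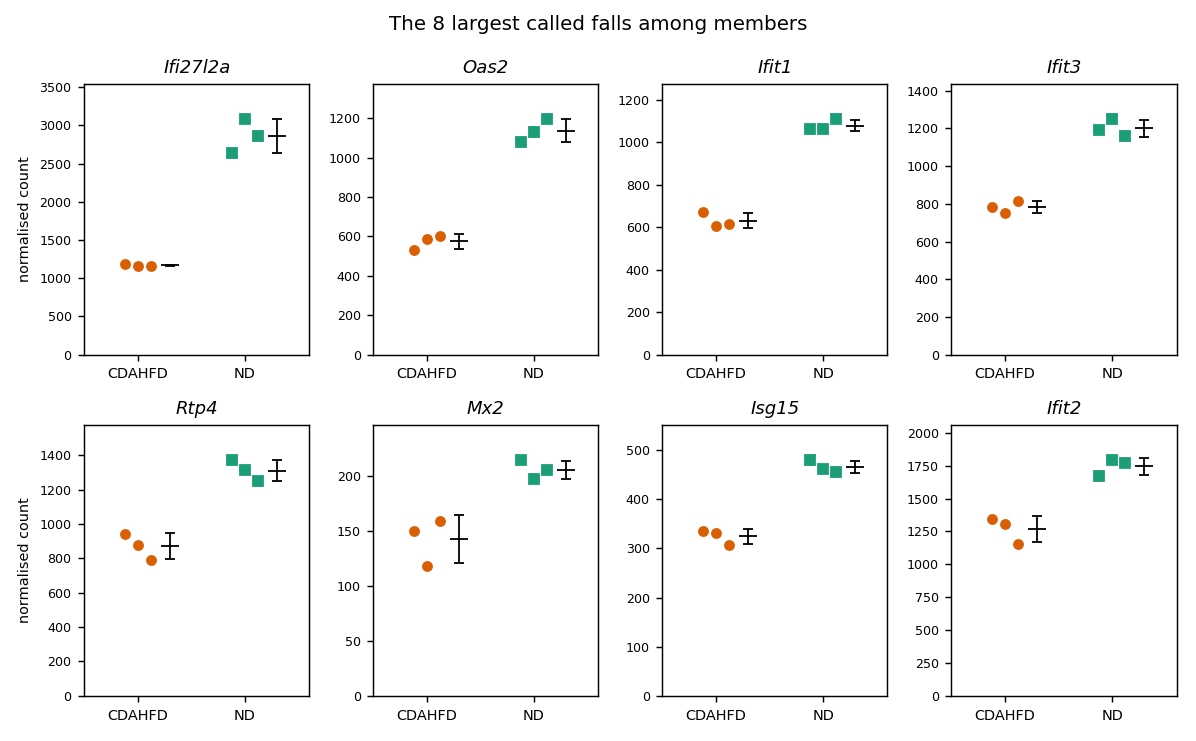
Normalised counts (vertical axes, from 0) of the 8 deepest called falls in each CDAHFD library (circles) and each ND library (squares), with the mean and SD of 3 libraries as a bar at the right. In all 8 genes, which were picked for the depth of their fall, every CDAHFD library lies below every ND library. Such a separation was seen for 26.5% of all genes tested.

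Of the nucleic acid sensors 4 fell and 1 rose. Zbp1, a sensor of Z-form nucleic acid that can trigger necroptosis, had 2326, 2203 and 2271 normalised counts in CDAHFD libraries and 3133, 3065 and 2954 in ND libraries (log2 fold change -0.43, SE 0.044, limma adjusted p = 3.18e-09). Ddx58, which encodes RIG-I, fell by 0.19 on the log2 scale (limma adjusted p = 0.000259), with 4134, 4109 and 4136 in CDAHFD libraries and 4739, 4623 and 4721 in ND libraries, but stood at 0.052 when scaled to T cell genes. Ifih1, which encodes MDA5, the companion sensor of long double-stranded RNA, rose to 1413, 1428 and 1316 in CDAHFD libraries, against 1032, 986 and 1076 in ND libraries (log2 fold change 0.43, SE 0.055, limma adjusted p = 2.39e-07). Eif2ak2, the kinase PKR that halts translation, fell by 0.25, but stood at -0.011 and was not called when scaled to T cell genes. Dhx58, the regulatory helicase LGP2, had 708, 712 and 831 in CDAHFD libraries and 853, 818 and 866 in ND libraries, and was called lower (log2 fold change -0.18, limma adjusted p = 0.032). However, 1 CDAHFD library lay within the ND range, the call was lost with DESeq2 (adjusted p = 0.0748) and in 4 of 6 fits with a library left out (limma adjusted p up to 0.135), and its sign turned when scaled to T cell genes (0.062). The Eif2ak2 call was lost with limma without trend and robust estimation (adjusted p = 0.064).

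Genes of ISG15, a ubiquitin-like tag, and of ubiquitin ligases fell or did not pass the test under the deposited scaling. Isg15 itself had 335, 332 and 307 normalised counts in CDAHFD libraries and 479.5, 462 and 455 in ND libraries (log2 fold change -0.52, SE 0.082, limma adjusted p = 5.22e-06). Usp18, which removes the tag and damps signalling at Ifnar2, had 789.8, 712 and 833 in CDAHFD libraries and 979, 1035 and 986 in ND libraries (log2 fold change -0.36). Scaled to T cell genes Usp18 stood at -0.13 without a call. Trim30a, a member of a mouse TRIM cluster, fell by 0.34. Herc6, the ligase that attaches ISG15 in mouse, averaged 1385 ± 61.6 in CDAHFD libraries and 1292 ± 58.6 in ND libraries (SD, n = 3 each, limma adjusted p = 0.13), and 23.8% of its stretches occur in other genes, Gm45193 foremost. Trim25, a ligase of the RIG-I pathway, averaged 5225 ± 109 and 5121 ± 174 in CDAHFD and ND libraries (limma adjusted p = 0.587). Parp9 and Dtx3l encode partners in 1 complex and overlap on chromosome 16. Parp9 had 2707, 2634 and 2691 in CDAHFD libraries and 3152, 3352 and 3285 in ND libraries (log2 fold change -0.29). Dtx3l averaged 4973 ± 277 in CDAHFD and 5141 ± 88 in ND libraries (limma adjusted p = 0.37). Scaled to T cell genes Parp9 stood at -0.047 without a call and Dtx3l was called higher, at 0.19. Their exons overlap on opposite strands over 458 bases, and without a stated strand setting reads from that stretch cannot be assigned to either.

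Of 8 other antiviral effectors 5 fell, 1 rose and 2 did not pass the test. Rtp4, a chaperone-like protein known to inhibit flaviviruses, had 941, 879 and 789.9 normalised counts in CDAHFD libraries and 1371, 1311 and 1251 in ND libraries (log2 fold change -0.59, SE 0.062, limma adjusted p = 4.92e-09). Its gene overlaps Gm45338 on the same strand over 296 bases, and 13.6% of its stretches occur in other genes. Mx2, a dynamin-like GTPase gene that GENCODE lists as a polymorphic pseudogene, had 150.1, 118 and 159.7 in CDAHFD libraries and 215, 198 and 206 in ND libraries (log2 fold change -0.54, limma adjusted p = 0.000756). Mx1, its relative on the same chromosome, averaged 1020.0 ± 5.15 in CDAHFD libraries and 1050.2 ± 43.9 in ND libraries (SD, n = 3 each, limma adjusted p = 0.579); the C57BL/6 allele of Mx1 is known to carry a deletion and to make no working protein. Samd9l, a restriction factor of poxviruses, fell by 0.22 and Isg20, an RNA exonuclease, by 0.23, but both turned sign when scaled to T cell genes (0.020 and 0.0093). The Isg20 call (limma adjusted p = 0.0282) was lost with DESeq2 (adjusted p = 0.0628) and in 4 of 6 fits with a library left out (limma adjusted p up to 0.112), and that of Samd9l was lost in limma without trend and robust estimation (adjusted p = 0.0512). Bst2, the tethering protein that holds budding virions at the cell surface, averaged 1893 ± 81.2 in CDAHFD and 1881 ± 142 in ND libraries (SD, n = 3 each, limma adjusted p = 0.891).

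The single deepest fall was that of Ifi27l2a (chromosome 12, 103442167 to 103443680 in mm10), a small member of the Ifi27 family of hydrophobic proteins. It had 1179.9, 1164 and 1165 normalised counts in CDAHFD libraries, against 2634, 3085 and 2861 in ND libraries, and its CDAHFD mean was 0.409 of its ND mean (log2 fold change -1.29, 95% interval -1.39 to -1.18, limma adjusted p = 3.92e-18). Every CDAHFD library lay below every ND library. Ifi27, close by on chromosome 12, averaged 2587 ± 48.8 in CDAHFD libraries and 2469 ± 75.2 in ND libraries (SD, n = 3 each, limma adjusted p = 0.221). Xaf1, a proapoptotic zinc finger gene, fell by 0.37 and Phf11b by 0.31 on the log2 scale. Neither was called when scaled to T cell genes (-0.14 for Xaf1 and -0.068 for Phf11b). Of the stretches of Phf11b 47% occur in other genes, Phf11a foremost, so its count is uncertain. Ifi35, a partner of NMI, averaged 1135 ± 36.4 in CDAHFD libraries and 1115 ± 41.4 in ND libraries (limma adjusted p = 0.746). Cmpk2, a mitochondrial nucleotide kinase, had 636, 634 and 634 in CDAHFD libraries and 690.1, 787 and 796 in ND libraries (log2 fold change -0.25, limma adjusted p = 0.00295), and stood at -0.014 without a call when scaled to T cell genes.

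The members that went against the fall were Ifi44, Ifitm2, Rsad2, Oas1a, Ifitm3, Ifih1, Ifnar2 and Irf1, and for all 8 every CDAHFD library lay above every ND library. Across all genes tested, such a separation in the higher direction was seen for 27.8%, and in the lower direction for 26.5%, 54.3% in all. Below the ND range in all CDAHFD libraries were 25 members, the falls other than Dhx58 and, without a call, Irf9. Ifi44 (chromosome 3, 151730922 to 151749960 in mm10), a cytoplasmic antiviral protein gene, had 215, 243 and 262 normalised counts in CDAHFD libraries, against 73, 71.4 and 74.5 in ND libraries. That is 3.29-fold higher (log2 fold change 1.70, 95% interval 1.43 to 1.97, limma adjusted p = 9.4e-12). Ifitm2 (chromosome 7, 140954837 to 140955987), a membrane protein that stops viruses at the point of fusion, had 307, 308 and 321 in CDAHFD libraries and 105, 133 and 109 in ND libraries, 2.69-fold higher (log2 fold change 1.43, SE 0.12, limma adjusted p = 2.49e-11). It overlaps Gm45717 on the same strand over 268 bases, and 48.5% of its stretches occur in other genes. Its relative Ifitm3 rose too, with 591, 726 and 639.8 in CDAHFD libraries and 500.4, 496 and 403 in ND libraries (log2 fold change 0.49, limma adjusted p = 6.03e-05). Rsad2, which encodes viperin, an enzyme that makes a chain-terminating nucleotide, had 567, 513 and 534 in CDAHFD libraries and 361, 406 and 336 in ND libraries (log2 fold change 0.55, SE 0.083, limma adjusted p = 2.61e-06). Marker lists of macrophages, red cells, neutrophils, monocytes and NK cells had medians above 0 too (3.05, 3.13, 1.65, 0.62 and 0.31). Heat shock genes had a median of 0.73. The lists of CD8 T cells, B cells and both kinds of dendritic cells had medians below 0. The part of other cells or of handling in the 8 rises was not tested.

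**Figure D4:**
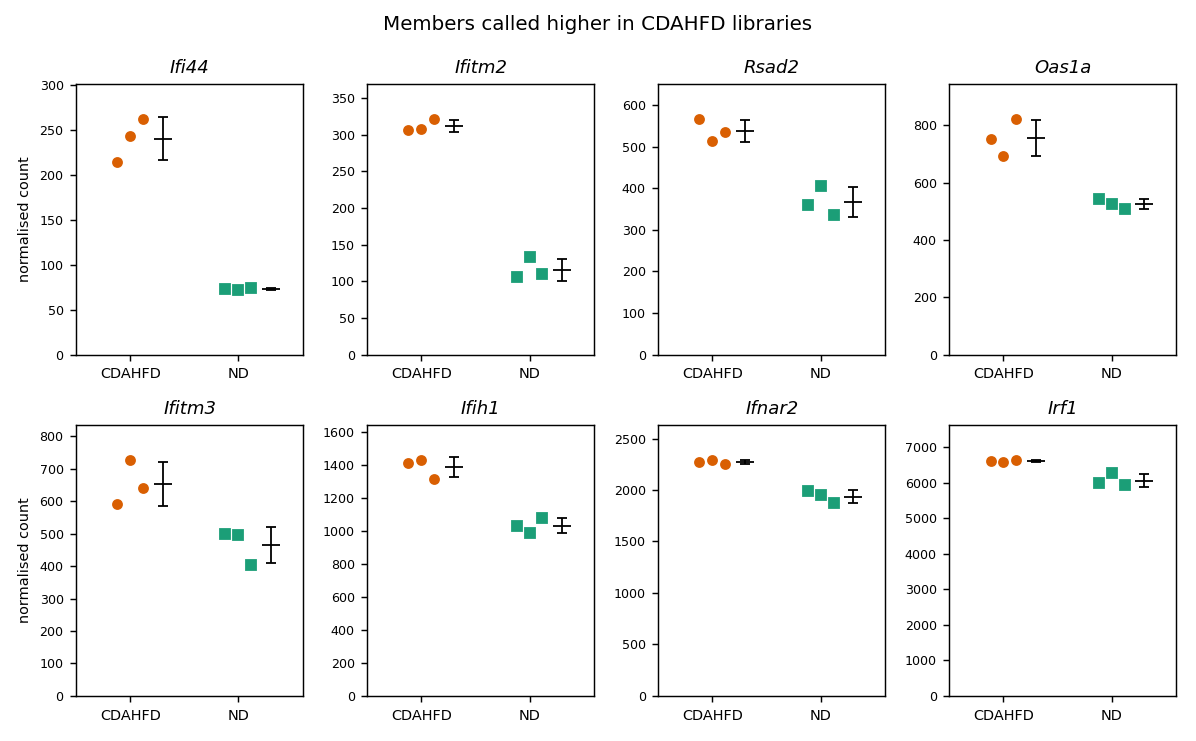
Normalised counts (vertical axes, from 0) of the 8 genes that rose, in each CDAHFD library (circles) and each ND library (squares), with the mean and SD of 3 libraries as a bar at the right. Ifi44 has 215, 243 and 262 in CDAHFD libraries against 73, 71.4 and 74.5 in ND libraries. In each panel every CDAHFD library lies above every ND library, as for 27.8% of all genes tested.

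Several rises belonged to genes that share a chromosome region or a step of the pathway with one that fell. For such pairs, and for the relatives Ifi27 and Ifi27l2a, of which Ifi27 was not called, the ratio of 2 genes within a library does not depend on how libraries are scaled. The pairs were chosen after the values were seen. Rsad2 and Cmpk2 lie close together on chromosome 12, on opposite strands. The reads of Rsad2 over those of Cmpk2 came to 0.89, 0.81 and 0.843 in CDAHFD libraries, against 0.523, 0.516 and 0.422 in ND libraries. Oas1a over Oas2, both in the cluster on chromosome 5, came to 1.41, 1.18 and 1.36 in CDAHFD libraries and 0.501, 0.465 and 0.424 in ND libraries, a change of 1.51 on the log2 scale. In reads Oas1a stood above Oas2 in all CDAHFD libraries and below it in all ND libraries, and the copy Oas1g can share reads with Oas1a. Ifnar2 over Ifnar1, both on chromosome 16, came to 0.56, 0.537 and 0.543 in CDAHFD libraries and 0.411, 0.412 and 0.39 in ND libraries. Ifih1 over Ddx58 came to 0.342, 0.348 and 0.318 in CDAHFD libraries and 0.218, 0.213 and 0.228 in ND libraries. Ifi27 over Ifi27l2a came to 2.19, 2.18 and 2.26 in CDAHFD libraries and 0.921, 0.829 and 0.848 in ND libraries. In none of these 5 pairs, nor in Oas1a over Oas3, did the diets overlap. The choice of a gene that was higher and one that was lower fixes that separation in every pair but Ifi27 over Ifi27l2a. In that pair it follows from the fall of Ifi27l2a, known when the pair was chosen, since Ifi27 changed little. The ratios are therefore a description, with no test.

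Levels, as normalised counts per kilobase of annotated exon, spanned a wide range. Ifi27l2a was the most abundant of the 43 in both diets, at 2526 in CDAHFD libraries and 6177 in ND libraries. Bst2 came next at 2096 and 2083 per kilobase in CDAHFD and ND libraries. Ifi44 had the lowest mean in ND libraries, with 39.2 per kilobase in CDAHFD and 11.9 in ND libraries. In CDAHFD libraries it was level with Mx2, which had 39.5 per kilobase in CDAHFD and 57 in ND libraries. Together the 43 genes took 0.311% to 0.315% of the reads assigned to genes in CDAHFD libraries and 0.353% to 0.359% in ND libraries.

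**Figure D5:**
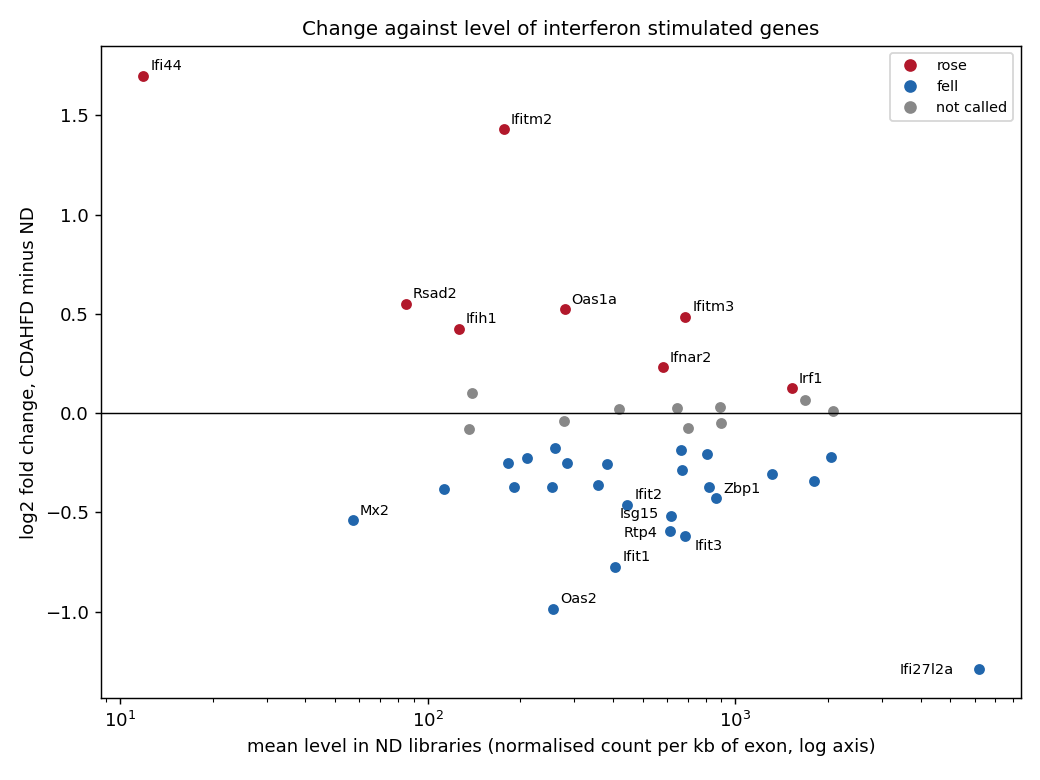
Log2 fold change, CDAHFD minus ND (vertical axis), against the mean level in ND libraries in normalised counts per kilobase of exon (horizontal log axis) for the 43 genes, coloured by call. Ifi44, at 11.9 per kilobase in ND libraries, stands at the upper left and Ifi27l2a, at 6177, at the lower right.

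Interferon genes outside the members were called in both directions, where 22.5% of all genes tested were called lower and 24.6% higher. Of 48 other interferon stimulated genes tested, 22 fell (45.8%), 17 rose (35.4%) and 9 did not pass the test, with a median of -0.015, close to that of all genes tested. Lgals3bp, a secreted scavenger-domain protein gene, had 7305, 6967 and 7352 normalised counts in CDAHFD libraries against 4940.4, 4585 and 4410.5 in ND libraries (log2 fold change 0.63). Ifitm1, of the same family as Ifitm2, was higher as well (248 ± 21.2 in CDAHFD and 56.5 ± 14.7 in ND libraries, SD, n = 3 each, log2 fold change 2.14), as was Ly6e, a membrane-anchored surface protein gene (log2 fold change 0.45). Ddx60, a helicase linked to RIG-I, was lower, at 1241, 1151 and 1084 in CDAHFD libraries against 1786, 1857 and 1973 in ND libraries (log2 fold change -0.69). Of 16 genes of signal transduction 7 rose (43.8%) and 3 fell (18.8%), with a median of 0.065. Stat3 and the feedback inhibitor Socs3 rose by 0.28 and 0.31 on the log2 scale, and Irf8 and Nmi had log2 fold changes of -0.29 and -0.21. Of 22 genes of sensing upstream of interferon 7 rose and 7 fell (31.8% each), with a median of 0.066. The RNA-sensing receptor genes Tlr8 and Tlr7 had log2 fold changes of 3.55 and 0.95, and their trafficking partner Unc93b1 and the adaptor Mavs had 0.80 and 0.43. Of 17 genes for the interferons themselves, 15 were not analysed here. Ifnab and Ifnk were below the filter, with Ifnab at 6.34, 0 and 0 normalised counts in CDAHFD libraries and 3.13, 1.02 and 3.77 in ND libraries. Ifnk had 0, 0 and 0.968 in CDAHFD libraries and 4.17, 0 and 4.71 in ND libraries.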

How the data were processed

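CD8+ T cells isolated from spleens gave 6 RNA-seq libraries, 3 from mice on CDAHFD and 3 from mice on ND. Per the labels' protocols, TRIzol was used to extract total RNA, and either a whole-RNA or an mRNA kit to build libraries. Which kit served which library is not given in the sources used here, nor are aligner, counter and strand setting. Reads were placed on mm10, per the submitters' processing notes. The authors deposited 1 table of signal, normalised counts that are read counts divided by a size factor per library. Whole reads were recovered from it: 100% of values came out whole within 0.001. All 6 value columns were used and 0 were left out. Depth was 25314988 to 28067393 reads per library.

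A mean of 10 or more normalised counts was required, which 15819 of 26181 genes met. They were tested on log2(normalised count + 1) with limma 3.58.1 (R 4.3.3), with trend and robust estimation and p-values were adjusted by Benjamini-Hochberg over all of them. Alternatives were edgeR 4.0.16 and DESeq2 1.42.0 on the recovered reads, other pseudocounts, filters and scalings, limma without trend and robust estimation, a replicate block, and each library left out in turn. Every member is named at least once. From each list of interferon genes outside the members, up to 4 called genes with the smallest adjusted p are named. The ligands and some relatives of members are named besides. The members and all gene lists were chosen with earlier results of these data known. The labels give no batch. Gene positions, exon lengths and shared 50-base stretches came from GENCODE annotation of GRCm38, the assembly that mm10 names, symbols from a table of Ensembl IDs (26147 of 26181 matched), and promoters from RefSeq. The test was checked on simulated data, where it missed some of the changes put in, and more of them where the change was smaller.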

Additional observations from a re-analysis of the deposited data

How the results depend on the processing

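Pseudocounts of 0.5 and 5, no filter or a filter at a mean of 50, TMM scaling, edgeR and the replicate block left the direction and call of each of the 43 members as they were. With the replicate block 8 members rose and 25 fell, and 3806 and 3444 of all genes did. The labels do not say whether equal replicate numbers pair the samples. The deviations of equally numbered libraries correlated at 0.041, -0.051 and 0.062, which cannot show whether those libraries shared a litter, batch or day. Equal library totals moved the members' median to -0.24 and turned Bst2 to -0.0096. Scaling to T cell genes moved it to 0.020, with 18 members called higher and 11 lower, and turned Isg20 to 0.0093, Ddx58 to 0.052, Dhx58 to 0.062, Mx1 to 0.20, Oasl2 to 0.16, Irf9 to 0.16, Dtx3l to 0.19, Samd9l to 0.020 and Ifnar1 to 0.033. The same setting takes the split of calls over all genes to 8037 higher and 1000 lower, from 3886 and 3563. Limma without trend and robust estimation called 7 members higher and 22 lower, and DESeq2 called 8 and 23. With 1 library left out in turn, the median ran from -0.22 to -0.19, with 7 to 8 members called higher and 23 to 24 lower, Bst2 ran from -0.036 to 0.070, Stat2 from -0.00044 to 0.034 and Ifi35 from -0.0041 to 0.049. The T cell setting also moved the median of all genes tested, by 0.24, and fits with a library left out had fewer samples. Causes beyond these were not tested. All 43 members passed the filter, but the 2 ligand genes Ifnab and Ifnk stayed below it. No setting varied depth, so whether it limited the calls was not tested.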
